A study of Homo sapiens with 4 samples.

Results

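Nearly every messenger RNA, with most histone mRNAs as the exception, ends in a poly(A) tail, which is added after the nascent transcript is cut downstream of a short signal, most often AATAAA in DNA letters. CPSF reads this signal and cuts, CstF holds the GU-rich element downstream of the cut, CFIm binds UGUA elements upstream of it and so biases which of several poly(A) sites is used, and CFIIm links the reaction to transcription termination. The m6A writer, whose catalytic subunit is METTL3, methylates adenosines in mRNA with a preference for sites near stop codons and in long last exons. Its subunit VIRMA is known to associate with CFIm subunits and CPSF components, which is the link between the writer and the genes described here.

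The genes were chosen by symbol, from 10 names given for cleavage and polyadenylation factors. CPSF5 is an older name of NUDT21, so the 10 names are 9 genes of the 60544 in the deposited count table, and all 9 passed the filter on low counts. CPSF1, CPSF3 and FIP1L1 belong to CPSF, NUDT21, CPSF6 and CPSF7 to CFIm, CSTF2 and CSTF3 to CstF, and PCF11 to CFIIm. The study compared METTL3 knockdown with control by sequencing poly(A) RNA from PC3, an established human prostate cancer cell line. The control arm (shNC) and the knockdown arm (sh812) had 2 libraries each, all from cells in RPMI-1640 with fetal bovine serum and penicillin/streptomycin. The labels name a single knockdown reagent, so loss of METTL3 and any other effect of that reagent cannot be told apart. They do not say that replicates were separate cultures, so p-values measure the spread between these libraries, which may be technical.

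Total counts ran from 31450648 to 37041330 per library, and the 9 genes took 0.0862% to 0.0915% of them. METTL3 had 43.98 ± 0.523 CPM (counts per library scaled to a common total, with TMM factors; SD, n = 2) in shNC and 8.20 ± 0.766 in sh812, a log2 fold change of -2.42 (adjusted p = 5.54e-14 in edgeR). Of the markers set for the line, KRT8, KRT18, EPCAM and CD44 summed to 848.8 to 910.5 CPM of the total counts in the 4 libraries. Of these 4, KRT18 (log2 fold change 0.30, adjusted p = 0.00793 in edgeR) and EPCAM (0.45, adjusted p = 0.000128) were called higher in sh812, and CD44 had -0.14 (adjusted p = 0.115) and KRT8 0.13 (adjusted p = 0.186). KLK3, a marker set as absent from the line, was at 0 in every library. Immune markers summed to 0.615 to 1.13 CPM and fibroblast markers to 43.5 to 51.3 CPM, most of the latter from COL1A1 (-0.27 on the log2 scale, adjusted p = 0.0589), and COL1A2 was called higher (0.50, adjusted p = 0.0116). The part of these markers in the results was not tested. Longer genes tended to lie lower in sh812, with a Spearman correlation across 12255 genes of -0.30 between exon length and the group difference. Within a group, the correlation of length with replicate 2 minus replicate 1 was -0.30 for shNC and 0.031 for sh812. Its part in the results was tested in the fits that remove the trend, and fold changes are also given with each library's length trend removed where that changes a call.

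The signal that these factors act on is shown in their own transcripts, because the genes are both the machinery and its substrates. The sequences are the last 30 bases of the main coding transcript of 8 genes in GENCODE 29 (GRCh38), 5′ to 3′ in DNA letters, with the AATAAA hexamer in capitals.
CPSF3 (chr2:9473072-9473101, plus strand): aaAATAAAatgcattcgtttctctggggga
FIP1L1 (chr4:53459639-53459668, plus strand): ttcaaaAATAAAaagacagcaatgacttta
NUDT21 (chr16:56429133-56429162, minus strand): tcatttcAATAAAaaatatttgaaagagaa
CPSF6 (chr12:69274329-69274358, plus strand): tattgaaAATAAAacaaacttttgataaga
CPSF7 (chr11:61402649-61402678, minus strand): atAATAAAtggggtgtgagctgttttatgg
CSTF2 (chrX:100840889-100840918, plus strand): tctgtgacttgaAATAAActttgaacacaa
CSTF3 (chr11:33084584-33084613, minus strand): tcctttaaaaAATAAAaggattcagaaaca
PCF11 (chr11:83187422-83187451, plus strand): gttgacctaagaacagctgagtatgggtgc
CPSF1, whose sequence is not printed here, holds neither AATAAA nor ATTAAA in that window, and nor does PCF11. AATAAA is present in the other 7 of the 9 genes, starting 18 bases (CSTF2) to 28 bases (CPSF3 and CPSF7) before the annotated end. Among 13216 tested genes with such a transcript, 53.6% hold AATAAA in the last 30 bases, 13.3% hold only ATTAAA and 33.1% hold neither, and an annotated end need not be the site used in PC3. GGACT, a strong form of the m6A consensus, occurs 8 times in the CPSF7 transcript (2.19 per kb, sense strand). It occurs 5 times each in NUDT21 (1.13 per kb) and PCF11 (0.651 per kb), and 3 times in CPSF1 (0.668 per kb). FIP1L1 holds 2 copies (0.910 per kb), CPSF3 and CSTF2 hold 1 each (0.426 and 0.511 per kb), and CPSF6 and CSTF3 hold 0. Over all those transcripts the median is 0.932 per kb, and 91.5% hold at least 1 copy. A match is not evidence of methylation, which was not measured here.

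The genes differed several-fold in level. Scaled to the length of the main transcript, CPSF1 was at 45.4 to 54.1 CPM per kb over the 4 libraries and CPSF3 at 44.98 to 50.5, ranges that overlap. NUDT21 followed at 38.9 to 41.2 CPM per kb and CPSF7 at 29.9 to 34.4. CPSF6 (17.2 to 19.8) overlapped FIP1L1 (15.9 to 17.95), and FIP1L1 overlapped CSTF2 (13.9 to 16.9). CSTF3 was at 11.6 to 13.5 CPM per kb and PCF11 lowest at 5.53 to 6.54. Scaled instead to all annotated exon bases, FIP1L1 fell to 6.22 to 7.00 CPM per kb, below CSTF3 at 7.20 to 8.37, so its place depends on which transcripts are expressed. Of the summed CPM of the 9 genes, CPSF1 made up 23.8% to 26.3% and NUDT21 19.5% to 20.6% per library.

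**Figure D1:**
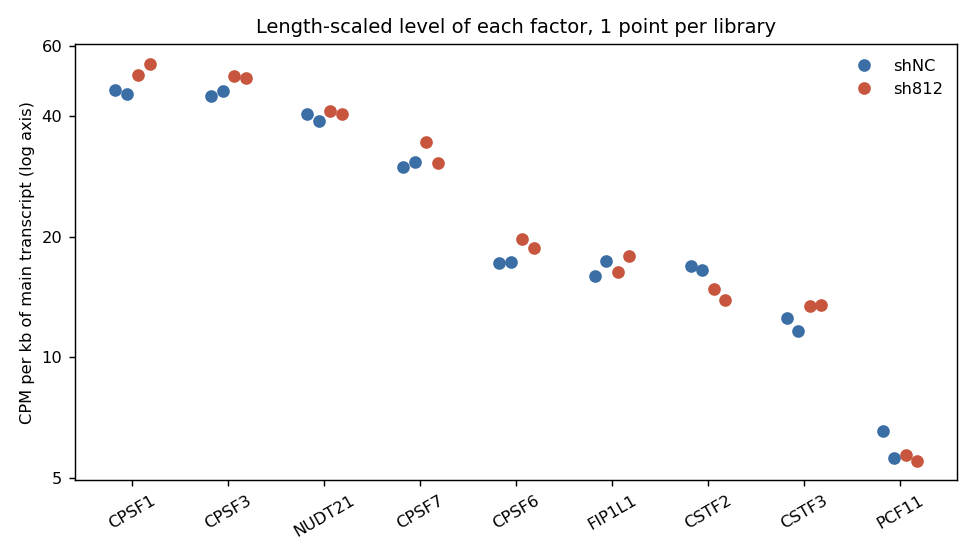
CPM per kb of main transcript (log axis) for the 9 factors, with 1 point per library, blue for shNC and red for sh812. The genes run from CPSF1 at 45.4 to 54.1 down to PCF11 at 5.53 to 6.54, with overlap between CPSF1 and CPSF3, CPSF6 and FIP1L1, and FIP1L1 and CSTF2.

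CPSF1 rose in sh812 and was the 1 factor of 9 called, meaning a Benjamini-Hochberg adjusted p under 0.05 over all genes in the edgeR fit. None was called lower. Over all 16802 genes tested, 5.43% were called higher and 5.42% lower, so 1 of 9 is near the 10.8% called in either direction. DESeq2 and limma-voom called the same 1 gene. At an unadjusted p under 0.05, 3 of the 9 were higher and 1 lower, against 11.9% and 12.9% of all genes (24.8% in either direction). The sh812 libraries lay wholly above shNC in 5 factors, wholly below in 1 (CSTF2) and overlapped in 3, against 26.2% wholly above and 27.4% wholly below over all genes (53.6% apart in either direction). The median log2 fold change was 0.10, beside -0.0056 for all genes tested, and single values ran from -0.22 to 0.19. The count of factors called was 0 when libraries were scaled by size alone. In that setting 561 of all genes were called higher and 1328 lower, against 912 and 910 with TMM. The count of factors fell without either sh812 library and rose without shNC replicate 2, as did the count over all genes. With the length trend removed 3 factors were called, with CPSF1 and CPSF6 higher and CSTF2 lower.

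**Figure D2:**
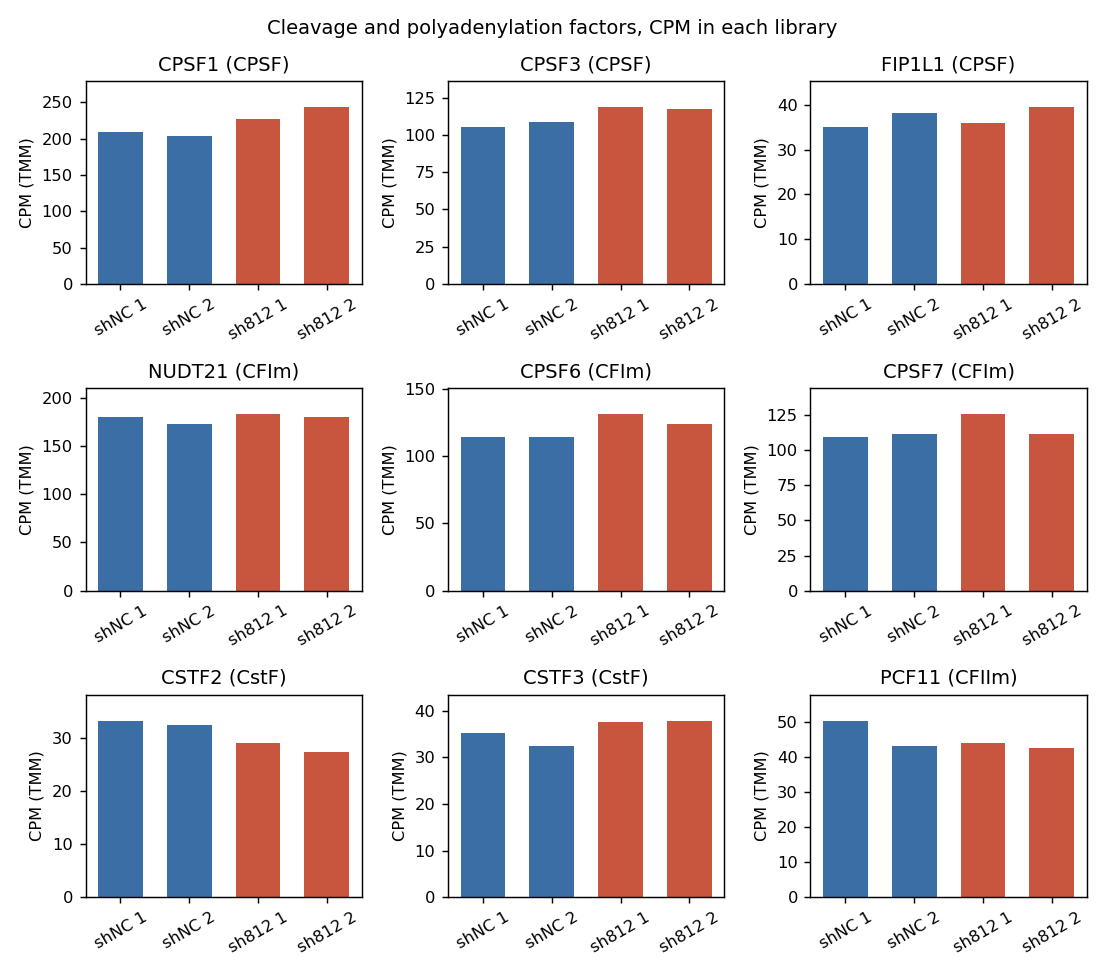
CPM (TMM-scaled) of each factor in each library, 1 bar per library from 0, with shNC in blue and sh812 in red. CPSF1 stands at 209 and 204 in shNC and at 228 and 243 in sh812, CSTF2 is lower in both sh812 libraries, and FIP1L1, CPSF7 and PCF11 overlap between groups.

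In CPSF, the complex that recognises the signal and cuts, CPSF1 is the large scaffold subunit (ENSG00000071894, minus strand of chromosome 8, 144393229 to 144409349). It had 209 and 204 CPM in the shNC libraries and 228 and 243 CPM in the sh812 libraries. Both sh812 libraries were above both shNC libraries. It rose by 0.19 on the log2 scale (SE 0.06; adjusted p = 0.0404), or 14.1%, with a 95% confidence interval of 4.74% to 24.2%. The call rests on small margins, since the adjusted p in edgeR was 0.114 with library size alone. With the length trend removed it was 0.0116. The call was lost without either sh812 library, where calls fell over all genes too. The log2 fold change was then 0.24 without replicate 1 and 0.14 without replicate 2. CPSF3, the endonuclease that makes the cut (chromosome 2, 9423568 to 9473101), had 105.5 and 109 CPM in shNC and 118.5 and 117 in sh812. Its groups did not overlap, but its log2 fold change of 0.14 (95% interval 0.0074 to 0.27) had an adjusted p of 0.173 in edgeR. FIP1L1 binds U-rich RNA and brings in the poly(A) polymerase (chromosome 4, 53377643 to 53460861). Its values were 35.0 and 38.3 CPM in shNC and 36.0 and 39.5 in sh812, which interleave, and the interval of the log2 difference was -0.14 to 0.22. Its exons share 1560 bases with LNX1 on the opposite strand, which had 37 to 56 counts, against 1210 to 1412 for FIP1L1. They also share 1017 bases with AC058822.1 on the same strand, which had 0 counts in every library.

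The other CPSF subunits were not called. WDR33, which contacts the signal directly, had a log2 fold change of 0.13 (adjusted p = 0.205 in edgeR), and 0.22 with the length trend removed (adjusted p = 0.0203). CPSF2, the inactive partner of the nuclease, had 0.058, the scaffold SYMPK 0.047, and CPSF4, the zinc finger subunit that contacts the signal with WDR33, 0.024. Their adjusted p-values were 0.623, 0.766 and 0.925. All 7 CPSF genes had a positive fitted value, with 1 past the threshold, where 10.8% of all genes were called. The 95% intervals of WDR33, CPSF2, SYMPK, CPSF4 and FIP1L1 included 0. The median of the 7 was 0.058, beside -0.0056 for all genes tested, and FIP1L1 was at -0.0022 with library size alone.

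CFIm is a tetramer of NUDT21 with CPSF6 or CPSF7. NUDT21, the subunit that binds UGUA (chromosome 16, 56429133 to 56452199), had 180 and 172 CPM in shNC and 183 and 180.1 in sh812. The sh812 libraries were only just the higher, and the log2 difference was 0.043 with an interval of -0.080 to 0.17, which leaves room for a change of up to 12.2% upward. Its sign turned with library size alone (-0.0020). CPSF6, which carries an arginine and serine rich tail (chromosome 12, 69239537 to 69274358), had 114.1 and 114.3 CPM in shNC and 131 and 124 in sh812. These groups were apart, with a log2 fold change of 0.16 (interval 0.028 to 0.29, adjusted p = 0.11 in edgeR). It was called with the length trend removed (0.21, adjusted p = 0.0201 in edgeR) and without shNC replicate 2 (adjusted p = 0.0453). CPSF7, the alternative partner (chromosome 11, 61402641 to 61430031), had 109 and 112 CPM in shNC and 126 and 111.5 in sh812. Only sh812 replicate 1 stood above the rest, and the log2 fold change of 0.10 was 0.013 without that library. None of the 3 CFIm genes was called with edgeR, DESeq2 or limma-voom, and 1 (CPSF6) had an unadjusted p under 0.05 in each. Over all genes in edgeR, 10.8% were called and 24.8% had an unadjusted p under 0.05.

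In CstF, CSTF2 is the subunit that binds the GU-rich element (chromosome X, 100820359 to 100840932). It had 33.1 and 32.4 CPM in shNC and 28.9 and 27.3 in sh812, and was the one factor with both sh812 libraries below both shNC libraries. The log2 fold change was -0.22 (SE 0.09, 95% interval -0.41 to -0.035), with an adjusted p of 0.121 in edgeR. With the length trend removed it was -0.31 (adjusted p = 0.025 in edgeR), and over the other settings with all libraries the adjusted p ran up to 0.258. CSTF3, the dimerising scaffold that holds CSTF2 (chromosome 11, 33077188 to 33162371), had 35.2 and 32.5 CPM in shNC and 37.6 and 37.8 in sh812, with a log2 fold change of 0.15 (adjusted p = 0.279 in edgeR). Its exons overlap TCP11L1 and LINC00294 on the opposite strand, which had 182 to 343 and 214 to 297 counts against 1027 to 1351 for CSTF3, and no source used here says how strand was handled in counting. CSTF2T, an intronless paralog of CSTF2, was at 169 ± 5.43 CPM in shNC and 172 ± 2.36 in sh812 (SD, n = 2), and CSTF1, the third subunit, had a log2 fold change of 0.079 (adjusted p = 0.535 in edgeR). How reads shared by CSTF2 and CSTF2T were counted is not given. None of the 4 CstF genes was called with edgeR, DESeq2 or limma-voom. At an unadjusted p under 0.05 there was 1 in edgeR and in limma-voom and 0 in DESeq2. The shares over all genes in edgeR were 10.8% called and 24.8% at an unadjusted p under 0.05.

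PCF11, the CFIIm subunit that binds the tail of RNA polymerase II and promotes termination (chromosome 11, 83156988 to 83187451), had 50.2 and 43.1 CPM in shNC and 43.9 and 42.4 in sh812. One control library stood above the other 3, and the log2 fold change of -0.11 (interval -0.29 to 0.062, adjusted p = 0.447 in edgeR) was 0.0024 without shNC replicate 1 and -0.041 with the length trend removed. Its partner CLP1, an RNA kinase, had 47.6 ± 2.52 CPM in shNC and 54.9 ± 0.589 in sh812 (SD, n = 2). Its fitted difference was 0.21 on the log2 scale (adjusted p = 0.0868). Neither CFIIm gene was called with edgeR, DESeq2 or limma-voom, and 1 had an unadjusted p under 0.05 in each. Across all genes these shares were 10.8% and 24.8% in edgeR.

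**Figure D3:**
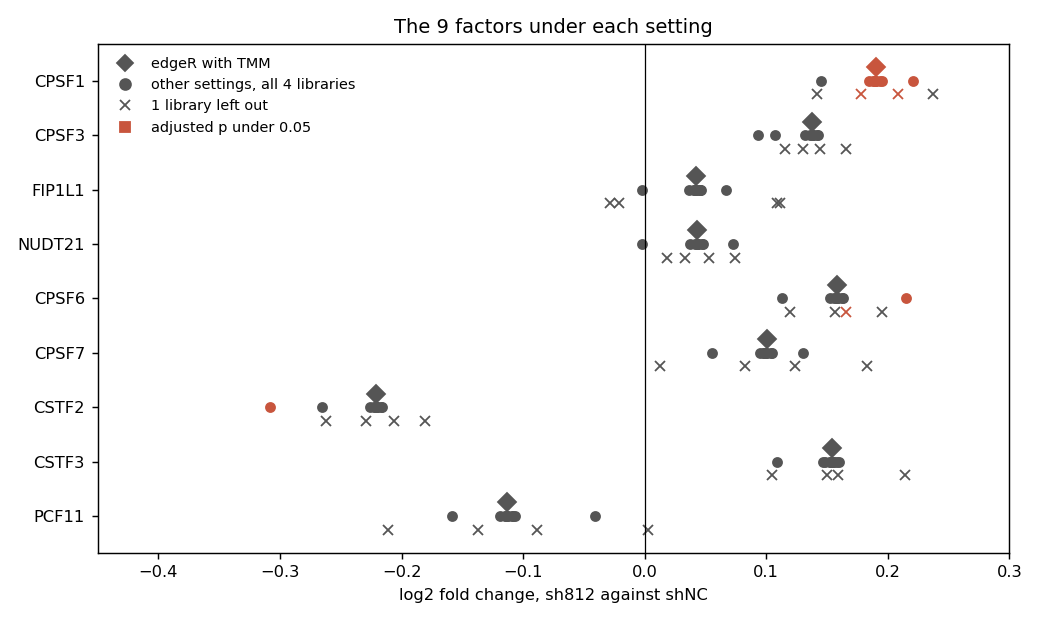
Fitted log2 fold change of each factor in edgeR with TMM (diamonds), under the other settings with all 4 libraries (circles) and with 1 library left out (crosses), with red marking an adjusted p under 0.05. CPSF1, CPSF3, CPSF6, CPSF7 and CSTF3 stay above 0 and CSTF2 below 0 in each setting run, whereas FIP1L1, NUDT21 and PCF11 reach the other side of 0.

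The balance between subunits of a complex was set out as the difference of their log2 CPM within each library, as a description with no test. An exact permutation test of 2 against 2 libraries could not give a p under 0.333. CSTF2 minus CSTF3 was -0.088 and -0.0014 in shNC and -0.38 and -0.47 in sh812, the widest shift of the 7 pairs at -0.38. CSTF2 minus CSTF2T was -2.38 and -2.34 in shNC and -2.58 and -2.64 in sh812. Both CstF pairs were apart between groups, and both hold CSTF2, so they are not separate results. CPSF6 minus NUDT21 was -0.66 and -0.59 in shNC and -0.48 and -0.54 in sh812, also apart, with a shift of 0.11. CPSF7 minus NUDT21, CPSF6 minus CPSF7 and CPSF3 minus CPSF1 overlapped between groups, with shifts of 0.054, 0.060 and -0.052. FIP1L1 minus CPSF1 was -2.575 and -2.41 in shNC and -2.66 and -2.62 in sh812. These were apart, with a shift of -0.15 that is smaller than the gap between the shNC libraries.

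**Figure D4:**
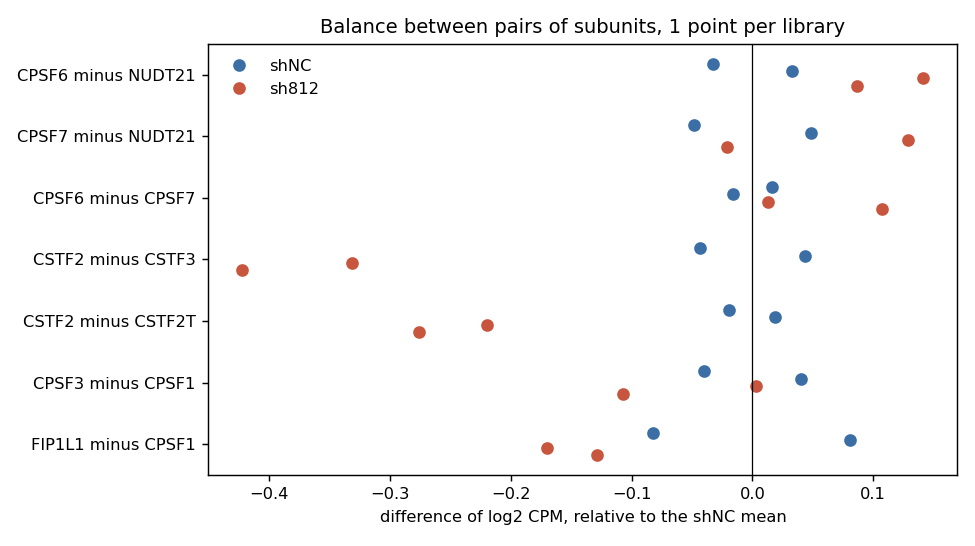
Difference of log2 CPM between 2 subunits in each library, shown relative to the shNC mean of that pair, with shNC in blue and sh812 in red. The 2 sh812 points lie well to the left for CSTF2 minus CSTF3 and CSTF2 minus CSTF2T, whereas for CPSF7 minus NUDT21 1 sh812 point lies between the shNC points and 1 above them.

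Across 46 genes of 3′ end processing, the 9 factors included, 5 were called higher and 0 lower in edgeR, that is 1 of the 7 CPSF genes (CPSF1), 1 of 9 termination genes and 3 of 7 in a list of U1 proteins and elongation kinases. DESeq2 and limma-voom called the same 5, and at an unadjusted p under 0.05 in edgeR 10 were higher and 5 lower. Over all genes 5.43% were called higher and 5.42% lower (10.8% in all), and 11.9% and 12.9% were at an unadjusted p under 0.05. So 5 of 46 is near the share called in either direction, but above the 5.43% called higher, and all 5 were higher. The sh812 libraries lay wholly above shNC in 26 genes, wholly below in 7 and overlapped in 13. Over all genes 26.2% were wholly above and 27.4% wholly below. No set test was run. The median log2 fold change was 0.064, beside -0.0056 for all genes tested. The count was 2 with library size alone. In that setting 561 of all genes were called higher and 1328 lower, against 912 and 910 with TMM. The count fell without either sh812 library and rose without shNC replicate 2, as did the count over all genes.

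The 3 called in the last list are the proteins specific to the U1 small nuclear ribonucleoprotein, which marks 5′ splice sites and also holds back cleavage at poly(A) signals inside introns. SNRPA had 65.2 and 68.0 CPM in shNC and 83.6 and 80.0 in sh812, a rise of 0.30 (SE 0.07; adjusted p = 0.00671) on the log2 scale. SNRNP70 had 153.5 and 164 CPM in shNC and 185 and 183 in sh812, a rise of 0.22 (SE 0.06; adjusted p = 0.0228) on the log2 scale. SNRPC had 149 and 158 CPM in shNC and 184 and 171.5 in sh812, a rise of 0.21 (SE 0.06; adjusted p = 0.0277) on the log2 scale. In each of the 3 genes both sh812 libraries were above both shNC libraries, as in 26.2% of all genes tested. The 3 were named for their call in these same libraries, so this separation adds no support. The call of each of the 3 was lost without either sh812 library, where calls fell over all genes too. Without sh812 replicate 1 the log2 fold changes of SNRPA, SNRNP70 and SNRPC were 0.27, 0.21 and 0.16. Without sh812 replicate 2 they were 0.33, 0.22 and 0.26. SNRPC, with 1277 exon bases, was not called with the length trend removed (0.084, adjusted p = 0.384 in edgeR), and with library size alone SNRNP70 and SNRPC had adjusted p-values of 0.0607 and 0.0738. The elongation kinase genes CDK12 and CDK13 of the same list were fitted at -0.18 and -0.17 on the log2 scale. Neither was called (adjusted p = 0.123 and 0.154 in edgeR). The remaining genes of that list, CCNK and CDK9, were at -0.12 and 0.090 (adjusted p = 0.537 and 0.55 in edgeR), and both overlapped between groups.

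The SNRPA transcript carries the best known case of a protein regulating its own poly(A) tail, since the protein that it encodes binds a pair of short boxes ahead of its own poly(A) site and blocks the polymerase. A search of its 3′ untranslated region, sense strand only, found ATTGTAC once and ATTGCAC once, shown in capitals in 30-base windows of the GENCODE 29 transcript.
SNRPA box upstream: cgccacacagcATTGTACccagagtctgtc
SNRPA box downstream: tgtccccagacATTGCACctggcgctgtta
They start 87 and 61 bases before the annotated end. The letters are not rare, since 10.8% and 10.6% of the 13216 main transcripts hold ATTGTAC and ATTGCAC in their 3′ untranslated region.

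SSU72, a phosphatase of the RNA polymerase II tail that works with CPSF, was the called termination gene (chromosome 1, 1541673 to 1574869). It had 239 and 259 CPM in shNC and 298 and 291 in sh812, a rise of 0.24 (SE 0.06; adjusted p = 0.00912) on the log2 scale. Its call held in each of the 9 other settings that used all 4 libraries and gave their own p-value. The call was lost without either sh812 library, where calls fell over all genes too. The log2 fold change was then 0.23 without replicate 1 and 0.26 without replicate 2. None of the 7 genes for the poly(A) polymerases, the tail binding protein PABPN1 and cleavage partners was called with edgeR, DESeq2 or limma-voom, and 2, 0 and 1 had an unadjusted p under 0.05 in these tools. The same holds for the 7 genes for histone and small nuclear RNA ends, with 1, 0 and 1. VIRMA had 192 ± 7.27 CPM in shNC and 206 ± 3.07 in sh812 (SD, n = 2). Its fitted difference was 0.10 on the log2 scale (adjusted p = 0.316), and 0.17 with the length trend removed (adjusted p = 0.0421). None of the 7 genes of the writer other than METTL3 was called or had an unadjusted p under 0.05 with edgeR, DESeq2 or limma-voom. In edgeR the shares over all genes were 10.8% called and 24.8% at an unadjusted p under 0.05.

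**Figure D5:**
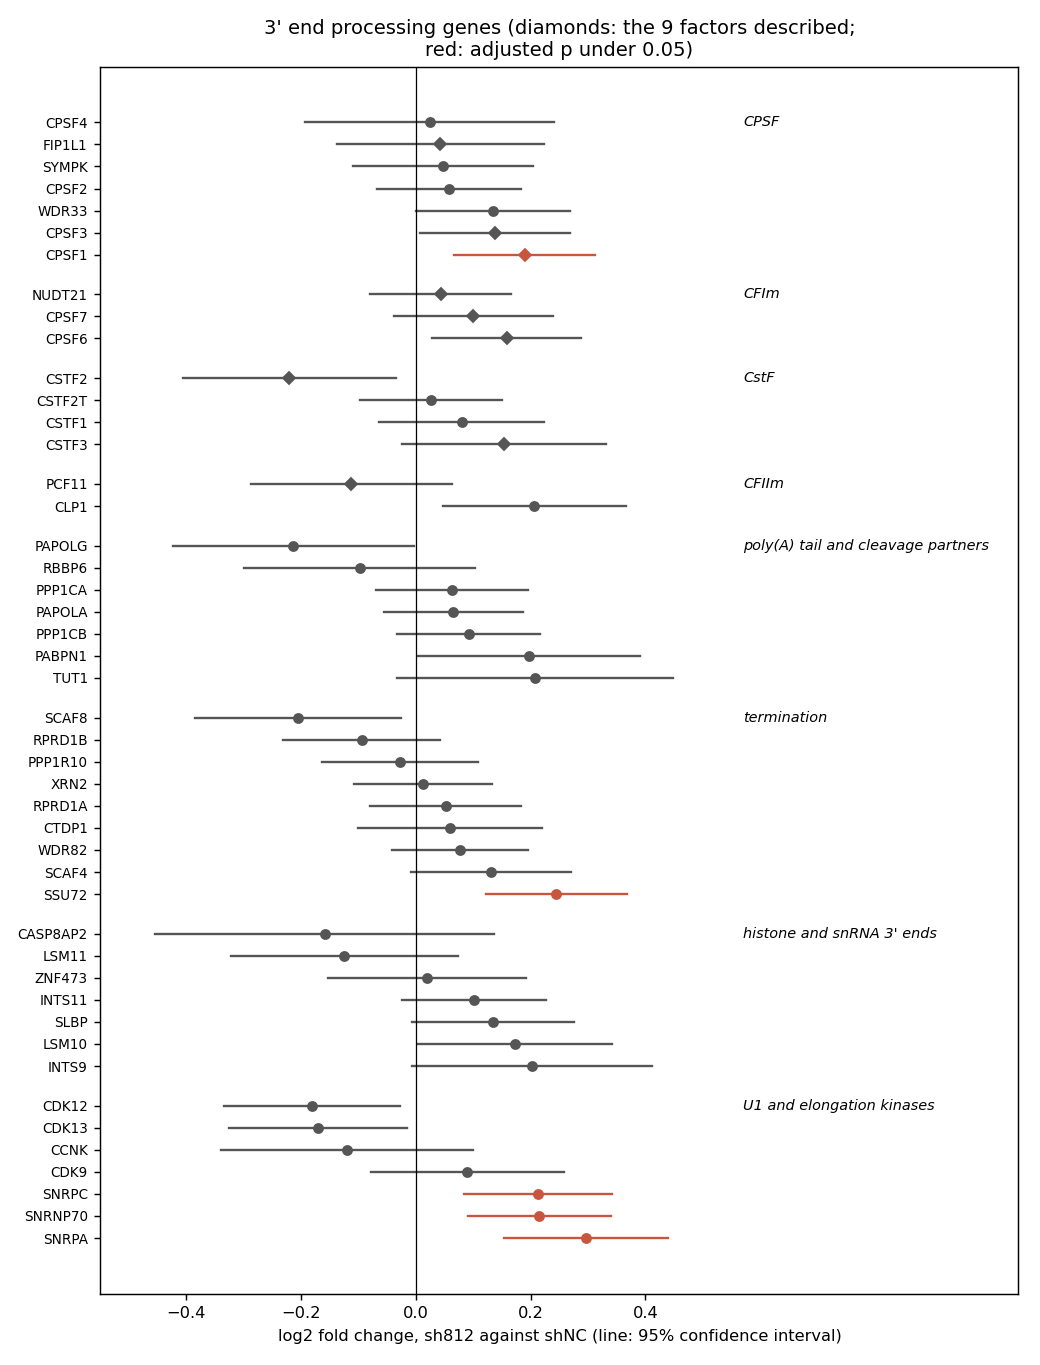
Fitted log2 fold change of 46 genes of 3′ end processing by list, with lines for the 95% confidence interval, diamonds for the 9 factors and red for an adjusted p under 0.05. The red points are CPSF1 (0.19), SSU72 (0.24), SNRPC (0.21), SNRNP70 (0.22) and SNRPA (0.30), all above 0.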

How the data were processed

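The authors deposited raw read counts per gene, with a different total in each library, per the file headers and values. The submitters' processing notes name fastp, STAR 2.7.1a, featureCounts, DESeq2 and hg38, with no role given. The annotation release, the strand setting and the counting of read pairs are not given in the sources used here. The libraries were made with dUTP second strands and UDG, which keeps strand, per the labels' protocols.

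Counts were fitted with edgeR 4.0.16 in R 4.3.3 (filterByExpr, TMM, glmQLFit and glmQLFTest, 4 libraries, no covariate), with Benjamini-Hochberg adjustment over 16802 genes and a threshold of 0.05. SE came from the F statistic. CPM and log2 CPM (prior count 2) were computed here. DESeq2 1.42.0 and limma-voom (limma 3.58.1) were alternatives, with other scalings, filters, a replicate block, each library left out and removal of the length trend (lowess, span 0.3). Tests were checked on simulated data. Gene positions, exon lengths and transcripts come from GENCODE 29, matched by Ensembl identifier. A main transcript is the basic, 3′ complete coding transcript of best APPRIS principal rank, then the longest.

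Replicates differed by more than sampling noise (chi-square per gene 8.43 and 4.51), so each library counted once. Members and lists were chosen with earlier results of these data known. Genes named are METTL3, the members, the other CPSF, CstF and CFIIm subunits, the called genes of the 3′ end lists, and VIRMA. LNX1, TCP11L1 and LINC00294 are named as overlapping genes, and markers as checks of the line. CDK9, CDK12, CDK13, CCNK, AC058822.1 and PABPN1 were chosen after their values were seen. One marker of the list set for the line, and the sum that holds it, are not reported here.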

Additional observations from a re-analysis of the deposited data

How the results depend on the processing

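All alternatives were planned. METTL3 stayed lower and called throughout, from -2.52 to -2.33 with a library left out. With a library left out, 1 group has a lone sample, which is assumed to vary like the other group. In these fits the factors called ran from 0 to 2, the 3′ end genes called from 0 to 14 and all genes called from 587 to 3252, against 1, 5 and 1822. With library size alone 0 factors and 2 genes of 3′ end processing were called, and 29.7% of all calls were higher, against 50.1%. With the length trend removed 3 factors were called. The median of the 9 factors stayed above 0, from 0.055 with library size alone to 0.14. NUDT21 and FIP1L1 turned sign with library size alone (-0.0020 and -0.0022), FIP1L1 also without shNC replicate 1 (-0.021) and sh812 replicate 2 (-0.028; leave-one-out range to 0.11), and PCF11 without shNC replicate 1 (0.0024; range from -0.21). CPSF7 minus NUDT21 turned without sh812 replicate 1 (-0.021; range to 0.13) and CPSF3 minus CPSF1 without sh812 replicate 2 (0.0030; range from -0.11). The causes were not tested. Replicate numbers gave no sign of pairing (correlation of deviations 0.016). The replicate block changed no call for METTL3, the 9 factors, the 46 genes of 3′ end processing or the writer list, with CPSF1 at 0.19, and called 2001 genes.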
